A study of Mus musculus with 4 samples.

Results

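The collagen chains are the genes whose symbol has the form of a collagen alpha chain, Col, a type number, the letter a and a chain number. Membership followed the symbol alone, and 44 of the 22186 genes in the table matched. The symbol rule itself was set with earlier results of these data known. RNA was sequenced from MC38, a mouse colon carcinoma cell line, carrying a stably transfected TetOn-CXCL14 construct, from which doxycycline switches on the chemokine CXCL14. The 4 libraries were 2 of cells given 1 µg/mL doxycycline (DOX) and 2 of control cells of the same line given the solvent PBS, all harvested after 72 h. Both groups carry the construct, no library analysed here had doxycycline without it, and the labels do not say whether the line is 1 clone. Cxcl14 stood at 385 and 391 TPM in the DOX libraries, against 27.3 and 29.2 TPM in the control libraries.

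Collagens are secreted proteins whose chains wind around each other in a triple helix. Fibrillar collagens build the fibrils of connective tissue, and the fibril-associated collagens with interrupted triple helices (FACIT) decorate them. Type IV forms the sheet of basement membranes, type VI forms beaded filaments around cells, and transmembrane collagens stay anchored in the cell surface. Fibroblasts and other mesenchymal cells are the main producers of fibrillar collagen in a tissue, whereas normal colon epithelium chiefly contacts type IV.

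Levels are in TPM, a gene's share of the transcripts in a library after scaling by length, so that genes can be set beside each other within a library. The deposited tables hold no read counts, so the depth behind each value is unknown and no counting interval is given. Between 97.2% and 97.6% of a library's full TPM total fell to genes in the table. Differences are on the log2(TPM + 1) scale, DOX minus control, which understates the change of low genes. They come from limma fitted to the 11359 genes whose mean reached 1 TPM, and a gene passed at a Benjamini-Hochberg adjusted p under 0.05. With 2 libraries a group, the smallest two-sided p of an exact permutation test is 0.333, so the calls lean on the variance that limma pools over genes. Nothing in the labels says that the replicates were separate cultures. The p-values therefore rest on variation within these groups of libraries, pooled over genes, and cannot be taken to cover variation between cultures. In whole cultures, fewer cells of a type and less RNA per cell cannot be told apart.

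The labels call the line a colon cancer, and markers of colon epithelium were near 0. Of 11 such markers, among them the epithelial adhesion gene Cdh1 and the intestinal factor Cdx2, 0 reached a mean of 1 TPM, and 4, Cdh1, Krt19, Cdx1 and Cdx2, were listed at 0 in all libraries. The summed level of the 11 was 0.145 and 0.391 TPM in the DOX libraries, against 0.469 and 0.368 TPM in the control libraries. Of 9 fibroblast markers outside the collagens, 6 were tested and all 6 fell, beside 35.4% of all genes tested. Their summed level over the 9 was 2912 and 2409 TPM in the DOX libraries, against 7606 and 7697 TPM in the control libraries. Most of that sum came from Dcn (485 and 464 TPM in the DOX libraries, against 3075 and 3259 TPM in the control libraries) and S100a4 (2203 and 1760 TPM in the DOX libraries, against 3678 and 3545 TPM in the control libraries). Thy1 was listed at 0 in all libraries, and Fap and Lum were listed at 0 in both DOX libraries and at no more than 0.210 TPM in a control library. Endothelial markers reached 0 of 6 tested, and those of smooth muscle (1 rose, 1 fell) and macrophages (1 fell) reached 2 of 7 and 2 of 8 tested. Acta2, the smooth muscle marker that rose, passed the filter through the DOX group only. Of 5 chondrocyte markers only Sox9 was tested, which fell, with 21.4 and 21.5 TPM in the DOX libraries, against 90.1 and 102 TPM in the control libraries. The part of these markers in the collagen results was not tested.

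Most collagen transcripts came from a handful of chains. Of the 44 chains, 19 passed the filter at a mean of 1 TPM and 25 did not. The chains nearest the filter were Col11a2 (mean 1.20 TPM) and Col27a1 (1.52 TPM) above it, and Col8a2 (0.234 TPM) and Col14a1 (0.232 TPM) well below it. A mean of at least 100 TPM was reached by 7 chains, Col3a1, Col16a1, Col6a3, Col6a1, Col5a1, Col4a1 and Col5a2, and 5 more lay between 10 and 100 TPM. The 25 chains under the filter were at or below 0.544 TPM in every library, and Col6a5, Col6a6 and Col15a1 were listed at 0 in all 4. The pair that makes type I collagen, the main fibrillar collagen of most connective tissue, was among the low chains. Col1a1 stood at 3.39 and 2.02 TPM in the DOX libraries, against 2.43 and 2.14 TPM in the control libraries. Col1a2 was at or below 0.250 TPM in each library.

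**Figure D1:**
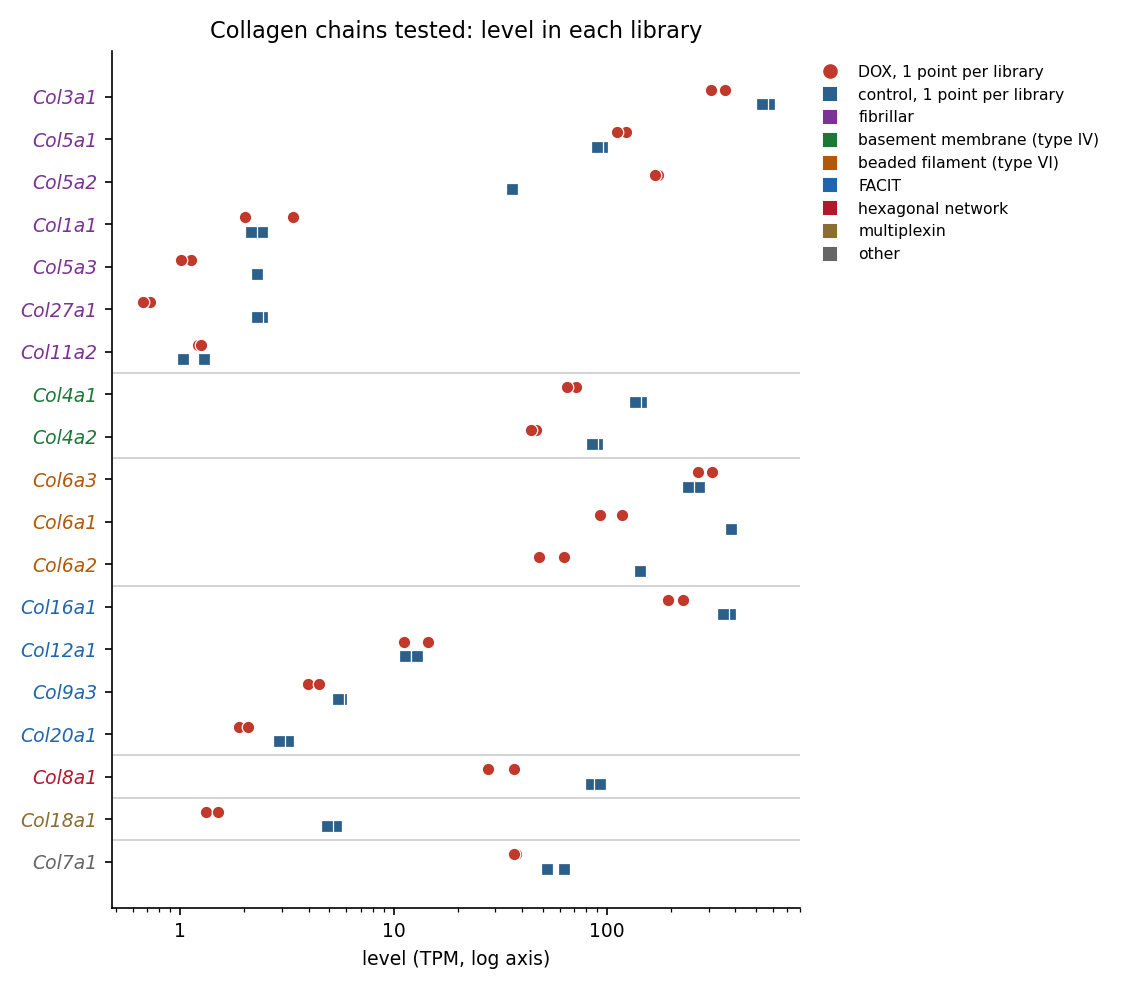
Level of each of the 19 tested chains in each library, in TPM on a log axis, grouped by structural class (colour of the gene name), with DOX libraries as circles above control libraries as squares. Col5a2 lies to the right after doxycycline, at 173 and 169 TPM against 35.8 and 35.8 TPM, while Col6a1, Col8a1 and Col18a1 lie to the left.

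Doxycycline went with lower levels of most tested chains and a rise of the type V pair. Of the 19, 13 fell, 2 rose and 4 did not pass, so that 15 were called in either direction. Over all genes tested, 35.4% fell, 29.0% rose and 64.4% were called in either direction. The median log2 difference of the tested chains was -0.67, beside -0.04 over all genes tested. A fall of at least 1 on the log2 scale was seen in 5 chains (7.76% of all genes) and a rise of that size in 1 (3.48% of all genes). The libraries of the groups did not overlap in 15 of the 19, beside 82.7% of all genes, so that the share was near the background. Col27a1 alone passed the filter through the control group only, with a DOX mean under 1 TPM. Under the scalings tried, the median difference of all genes lay between -0.04 and 0.05.

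**Figure D2:**
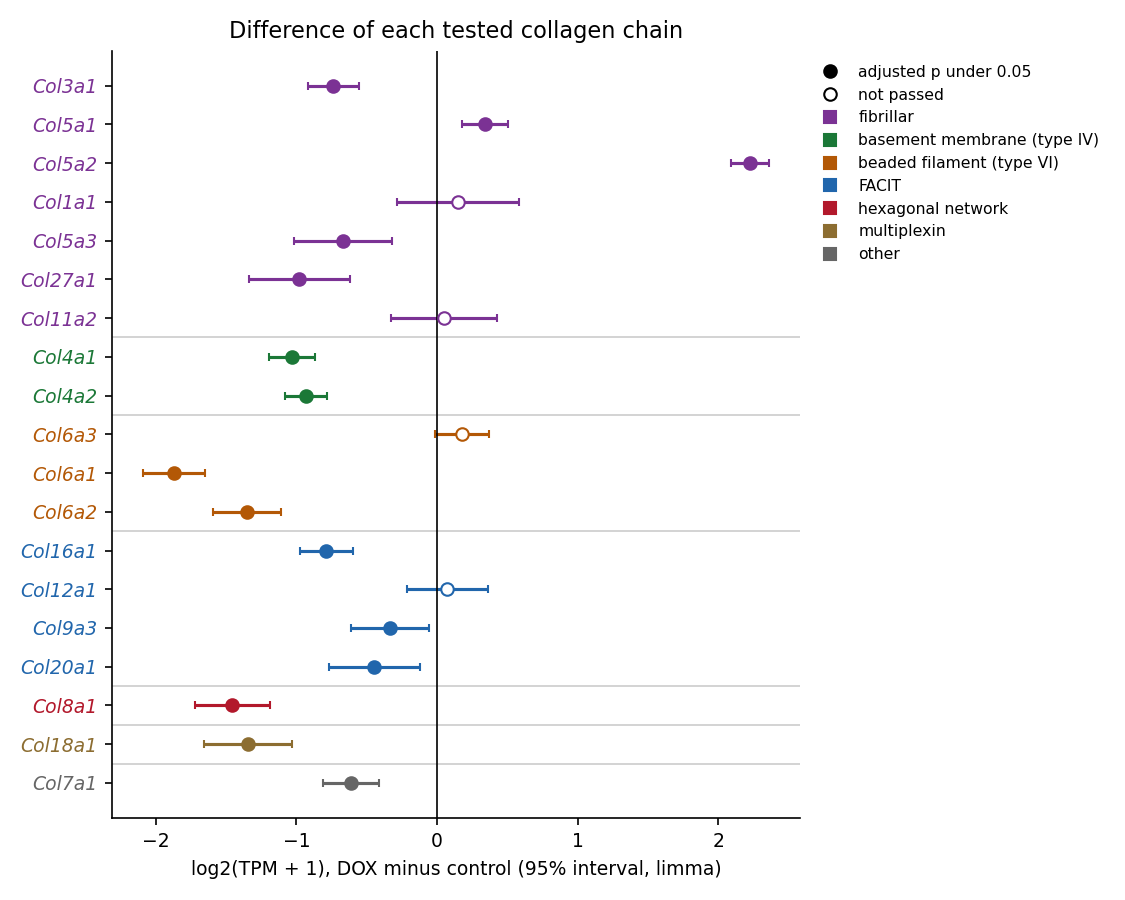
Difference of each tested chain on the log2(TPM + 1) scale, DOX minus control, with its 95% interval from limma. Filled points passed the adjusted threshold, and open points (Col1a1, Col11a2, Col6a3 and Col12a1) did not. Only Col5a2 and Col5a1 are filled to the right of 0.

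The summed collagen level fell in TPM, and its make-up differed. All 44 chains together held 1593 and 1389 TPM in the DOX libraries, against 2297 and 2173 TPM in the control libraries, a ratio of group means of 0.667. Without Col5a2 the sums were 1420 and 1220 TPM, against 2262 and 2137 TPM, a ratio of 0.600. The share of the summed collagen TPM held by Col5a2 was 10.9% and 12.1% in the DOX libraries, against 1.56% and 1.65% in the control libraries. Col6a1 held 7.37% and 6.69%, against 16.8% and 17.5%, while Col6a3 held 19.4% and 19.3%, against 11.8% and 11.0%. Col3a1 stayed the most abundant chain in all 4 libraries, with 22.5% and 22.2% in the DOX libraries, against 25.0% and 24.6% in the control libraries. By class, fibrillar chains made up 41.5% and 42.7% of the collagen TPM in the DOX libraries, against 31.1% and 30.8% in the control libraries. Among the classes, only the fibrillar share was higher in both DOX libraries than in both control libraries. The fibrillar sum itself was 662 and 593 TPM in the DOX libraries, against 714 and 669 TPM in the control libraries. These sums are descriptions with no test.

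**Figure D3:**
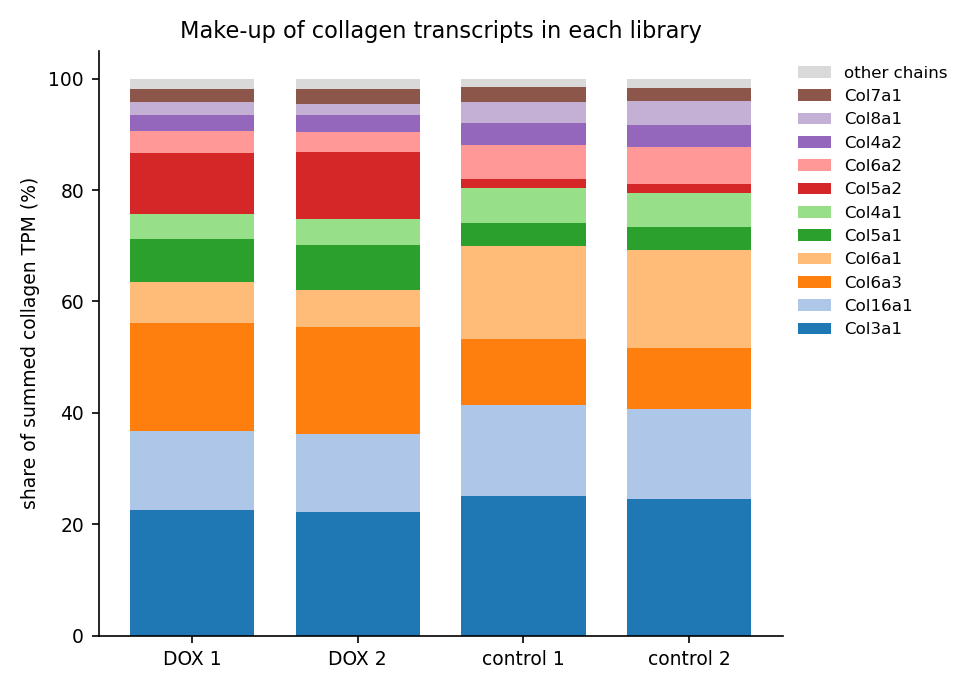
Share of each library's summed collagen TPM held by each of the 11 most abundant chains, with all others in grey. The Col5a2 band is 10.9% and 12.1% in the DOX bars and 1.56% and 1.65% in the control bars, and the Col6a1 band is 7.37% and 6.69% against 16.8% and 17.5%.

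Among the 11 fibrillar chains, 7 were tested, of which 2 rose, 3 fell and 2 did not pass. The shares of all tested genes were 29.0% that rose and 35.4% that fell. Col5a2, the alpha 2 chain of type V collagen, which co-assembles into fibrils and limits their diameter, had 173 and 169 TPM in the DOX libraries, against 35.8 and 35.8 TPM in the control libraries. Its groups were far apart and each was tight, at 171 ± 3.03 TPM and 35.8 ± 0.0362 TPM (SD, n = 2 each), a 4.77-fold higher level (log2 difference 2.22, SE 0.06, limma adjusted p = 1.3e-08). Col5a1, the alpha 1 chain of the same molecule, had 123 and 111 TPM in the DOX libraries, against 95.04 and 89.4 TPM in the control libraries. Col5a1 rose by less, 1.27-fold (log2 difference 0.34, SE 0.07, limma adjusted p = 0.0024). The other alpha chain of this type, Col5a3, went the other way, with 1.128 and 1.010 TPM in the DOX libraries, against 2.30 and 2.29 TPM in the control libraries (log2 difference -0.67, limma adjusted p = 0.0042). Quantile normalization ended that call (log2 difference -0.32, limma adjusted p = 0.091, range over alternatives 5.3e-04 to 0.091).

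Col3a1, whose chains form type III collagen on their own, was the most abundant collagen and fell. It stood at 358 and 308 TPM in the DOX libraries, against 575 and 535 TPM in the control libraries, with no overlap (log2 difference -0.74, SE 0.08, limma adjusted p = 4.4e-05). Col27a1, a fibrillar chain known from cartilage, had 0.724 and 0.672 TPM in the DOX libraries, against 2.41 and 2.28 TPM in the control libraries, and fell (log2 difference -0.98, SE 0.16, limma adjusted p = 5.3e-04). Col1a1 did not pass, its DOX libraries at 3.39 and 2.02 TPM lying above and below both control libraries (log2 difference 0.15, 95% interval -0.28 to 0.58, limma adjusted p = 0.52). Col11a2, a chain of type XI collagen, also overlapped between groups, with 1.22 and 1.26 TPM in the DOX libraries, against 1.04 and 1.29 TPM in the control libraries (log2 difference 0.05, 95% interval -0.33 to 0.43). The 4 fibrillar chains under the filter, Col1a2, Col2a1, Col11a1 and Col24a1, were at or below 0.402 TPM in every library.

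The upstream sequences of Col3a1 and Col1a2 are shown because one is the highest fibrillar chain here and the other is close to 0 in all libraries. They are the 250 bases before the RefSeq start in build GRCm38.p6, at chr1:45311288-45311537 on the plus strand and chr6:4505368-4505617 on the plus strand. Capitals mark 3 motifs searched on both strands. They are the TATA box, spelled TATAAA here, the CCAAT box, spelled as its name, and the GC box, spelled GGGCGG.
Col3a1: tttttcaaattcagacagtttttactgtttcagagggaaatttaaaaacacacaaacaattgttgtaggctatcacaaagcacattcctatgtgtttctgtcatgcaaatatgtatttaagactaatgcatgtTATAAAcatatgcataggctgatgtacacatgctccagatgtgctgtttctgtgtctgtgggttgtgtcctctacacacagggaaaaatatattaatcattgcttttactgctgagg
Col1a2: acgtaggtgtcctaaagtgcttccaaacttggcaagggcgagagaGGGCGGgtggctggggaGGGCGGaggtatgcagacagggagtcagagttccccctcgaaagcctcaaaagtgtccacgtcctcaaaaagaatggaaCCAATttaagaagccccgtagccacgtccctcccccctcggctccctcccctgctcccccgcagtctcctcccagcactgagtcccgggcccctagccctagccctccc
The Col3a1 window held 1 TATA match, 117 bases before the start, and 0 of the other motifs. The Col1a2 window held 1 CCAAT match, 109 bases before the start, and 2 GC box matches, 188 and 205 bases before it, and no match overlapped another. Of the 44 chains, 35 had a RefSeq window, and among their 38 windows a TATA box was found in 13.2%, a CCAAT box in 34.2% and a GC box in 57.9%. Over all 32851 windows of the same length, these shares were 12.4%, 33.8% and 32.7%. The matches describe letters only.

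Of the 9 FACIT chains, 4 were tested, of which 3 fell and 1 did not pass (35.4% of all tested genes fell). Col16a1, the second most abundant collagen gene by its mean over the libraries, is a fibril-associated chain that cells of several tissues make. It had 227 and 193 TPM in the DOX libraries, against 377 and 348 TPM in the control libraries, and fell with no overlap (log2 difference -0.79, SE 0.08, limma adjusted p = 3.4e-05). Col12a1, a chain found on the surface of type I fibrils, had 14.5 and 11.2 TPM in the DOX libraries, against 11.4 and 12.8 TPM in the control libraries. These libraries were interleaved (log2 difference 0.07, 95% interval -0.21 to 0.36, limma adjusted p = 0.64).

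Of the 3 FACIT chains that fell, 2 lost the call when a single library was left out or under another scaling. Col9a3, a chain of cartilage type IX collagen, had 3.99 and 4.48 TPM in the DOX libraries, against 5.69 and 5.49 TPM in the control libraries (log2 difference -0.33, limma adjusted p = 0.037). Its call was lost without any 1 of the 4 libraries, with limma adjusted p = 0.19 without DOX replicate 1, 0.054 without DOX replicate 2, 0.11 without control replicate 1 and 0.077 without control replicate 2. Without a library the log2 difference lay between -0.40 and -0.27. The Col9a3 call was also lost with no filter (adjusted p = 0.076), under median-of-ratios scaling (log2 difference -0.28, adjusted p = 0.074) and under quantile normalization (log2 difference -0.05, adjusted p = 0.71), over a range of 0.012 to 0.71. The other chains of type IX, Col9a1 and Col9a2, were under the filter, at no more than 0.181 TPM in a library. Col20a1 had 1.88 and 2.07 TPM in the DOX libraries, against 3.21 and 2.90 TPM in the control libraries (log2 difference -0.45, limma adjusted p = 0.021). The Col20a1 call was lost without DOX replicate 1 (log2 difference -0.40, limma adjusted p = 0.094), without control replicate 1 (-0.39, adjusted p = 0.081) and under quantile normalization (-0.09, adjusted p = 0.60), over a range of 0.0038 to 0.60. Without either of those libraries only 1 FACIT chain, Col16a1, was called lower. The 5 FACIT chains under the filter, Col9a1, Col9a2, Col14a1, Col19a1 and Col22a1, were at or below 0.317 TPM in every library.

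Type VI collagen is assembled from alpha 1, alpha 2 and alpha 3 chains. Here 2 of the 3 genes tested fell while the other did not pass (35.4% of all tested genes fell). Col6a1 had 117 and 92.9 TPM in the DOX libraries, against 387 and 381 TPM in the control libraries. It averaged 105 ± 17.3 TPM in the DOX libraries and 384 ± 3.86 TPM in the control libraries (SD, n = 2 each), the largest fall of a tested chain (log2 difference -1.87, SE 0.10, limma adjusted p = 4.3e-07). Col6a2 had 62.8 and 48.1 TPM in the DOX libraries, against 141 and 142 TPM in the control libraries, and fell too (log2 difference -1.35, SE 0.11, limma adjusted p = 5.4e-06). In both genes DOX replicate 2 was the lower library, and the DOX libraries stood far below the controls. Col6a3, the largest of the 3 chains, had 310 and 268 TPM in the DOX libraries, against 270 and 239 TPM in the control libraries, so that the groups overlapped slightly (log2 difference 0.18, 95% interval -0.01 to 0.37, limma adjusted p = 0.093). Without DOX replicate 2 it passed as higher (log2 difference 0.28, limma adjusted p = 0.020), as it did under median-of-ratios scaling (0.25, adjusted p = 0.024) and with the replicate number as a block (adjusted p = 0.021), over a range of 0.020 to 0.54. The further type VI chains, Col6a4, Col6a5 and Col6a6, were at or below 0.0874 TPM in every library.

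The 250 bases before the RefSeq start of Col6a1 are shown for the chain with the largest fall, at chr10:76726045-76726294 on the minus strand in build GRCm38.p6.
Col6a1: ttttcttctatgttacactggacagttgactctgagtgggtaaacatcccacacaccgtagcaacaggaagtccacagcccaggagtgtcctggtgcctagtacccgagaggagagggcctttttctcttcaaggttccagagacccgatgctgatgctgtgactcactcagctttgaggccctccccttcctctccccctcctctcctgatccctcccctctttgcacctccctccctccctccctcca
It held 0 matches to any of the 3 motifs on either strand, so that no letter is in capitals.

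Type IV collagen, the network of basement membranes, was represented by Col4a1 and Col4a2, whose chains make its common form. Col4a1 had 71.4 and 64.6 TPM in the DOX libraries, against 145 and 135 TPM in the control libraries (log2 difference -1.03, SE 0.07, limma adjusted p = 2.3e-06). Col4a2 had 46.6 and 44.3 TPM in the DOX libraries, against 89.6 and 85.4 TPM in the control libraries (log2 difference -0.93, SE 0.07, limma adjusted p = 2.8e-06). Their ratios of group means were 0.486 and 0.519, and the groups were well apart in each gene. The chains of the specialised type IV networks of kidney and other tissues, Col4a3, Col4a4, Col4a5 and Col4a6, were at or below 0.176 TPM in every library.

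Col4a1 and Col4a2 lie head to head and share the sequence at their starts, which is shown here for that reason. The 30 bases at chr8:11312801-11312830 are given on the plus strand of build GRCm38.p6, from RefSeq. Capitals mark the 22 bases that both genes transcribe, in opposite directions, between the first base of Col4a2 at position 11312805 and that of Col4a1 at position 11312826.
Col4a1 and Col4a2: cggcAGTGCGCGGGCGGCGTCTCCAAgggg
Whether the counting used strand is not stated. The shared exonic bases were 22 of 7464 in Col4a1 and 22 of 6619 in Col4a2 in GENCODE M21.

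The remaining tested chains belong to smaller families, and each fell (35.4% of all tested genes fell). Col8a1, a short-chain collagen of hexagonal networks such as that of the corneal endothelium, had 36.6 and 27.6 TPM in the DOX libraries, against 84.6 and 93.2 TPM in the control libraries (log2 difference -1.45, SE 0.12, limma adjusted p = 6.3e-06). The other chain of type VIII, Col8a2, was under the filter at 0.0505 and 0.0562 TPM in the DOX libraries, against 0.544 and 0.285 TPM in the control libraries. Col18a1, a multiplexin of basement membranes whose end fragment is endostatin, had 1.326 and 1.498 TPM in the DOX libraries, against 5.37 and 4.87 TPM in the control libraries (log2 difference -1.34, SE 0.14, limma adjusted p = 3.2e-05). Col7a1, which forms the anchoring fibrils beneath stratified epithelia, had 37.5 and 36.8 TPM in the DOX libraries, against 62.8 and 52.4 TPM in the control libraries (log2 difference -0.61, SE 0.09, limma adjusted p = 2.6e-04). In all 3 genes each DOX library was below each control library.

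Transmembrane collagens were near 0. Of the 4 genes, Col13a1, Col17a1, Col23a1 and Col25a1, 0 were tested, and the highest value in a library was 0.305 TPM. Their sum was 0.0430 and 0.0511 TPM in the DOX libraries, against 0.265 and 0.313 TPM in the control libraries, and most of the control sum came from Col25a1, a neuronal collagen listed at 0 in both DOX libraries. Col10a1, of hypertrophic cartilage, reached 0.177 TPM in a library and Col15a1 was listed at 0. Col26a1 and Col28a1, in no larger class, were at or below 0.110 TPM in every library. When every gene above 0 in any library was tested, 22 of the low chains entered and 3 passed, Col25a1 and Col8a2 as lower (log2 difference -0.31 and -0.42) and Col14a1 as higher (0.17, limma adjusted p = 0.0497).

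The proportions of chains that build 1 molecule differed between groups in types V and VI and lay close together in type IV. The ratio of Col5a2 to Col5a1 in TPM was 1.40 and 1.52 in the DOX libraries, against 0.377 and 0.401 in the control libraries, so that the order of the 2 chains was turned round. The ratio of Col6a3 to Col6a1 was 2.64 and 2.89 in the DOX libraries, against 0.699 and 0.628 in the control libraries, a turn of the same kind. Col6a2 relative to Col6a1 was 0.535 and 0.518 in the DOX libraries, against 0.365 and 0.373 in the control libraries. Col4a1 relative to Col4a2 was 1.53 and 1.46 in the DOX libraries, against 1.62 and 1.58 in the control libraries, a narrow range. TPM depends on the transcript length assigned to each gene, so a ratio of 1 does not mark equal numbers of chains. The ratios were not tested.

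**Figure D4:**
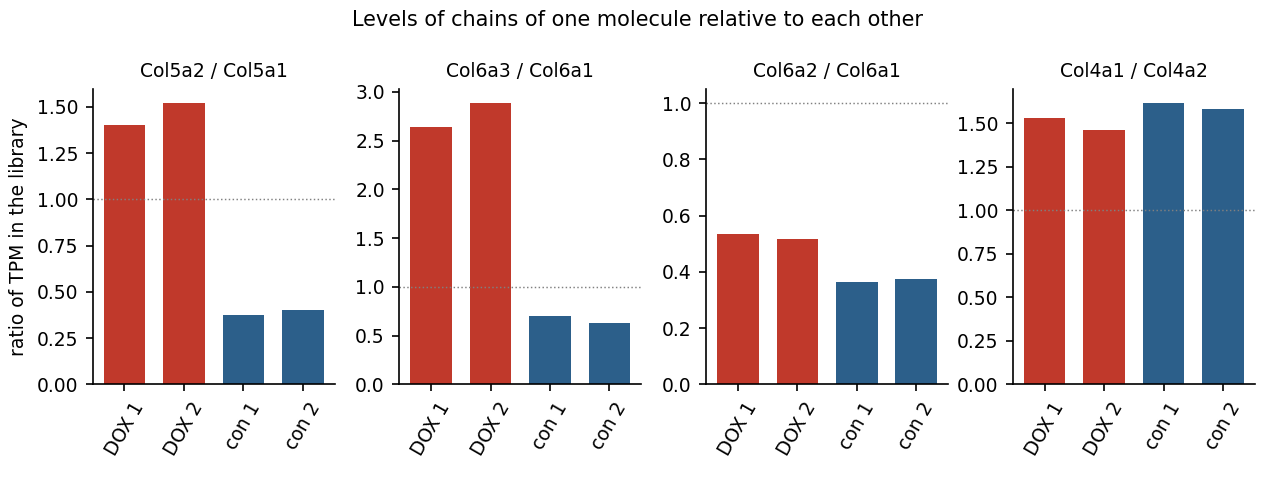
Ratio of the TPM of 2 chains of the same collagen type in each library, DOX libraries at the left and control libraries (con) at the right, with a dotted line at 1 and separate axes. Col5a2/Col5a1 and Col6a3/Col6a1 lie above 1 in the DOX libraries and below 1 in the control libraries, while Col4a1/Col4a2 lies between 1.46 and 1.62 in all 4.

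Several chains are neighbours in the genome, and the neighbours did not always change together. In GENCODE M21, Col3a1 and Col5a2 lie next to each other, tail to tail, on chromosome 1. Col3a1 fell and Col5a2 rose. Col6a1 and Col6a2 follow each other on the same strand of chromosome 10, and both fell. Col4a1 and Col4a2 on chromosome 8 both fell, whereas the head-to-head pairs Col4a3 with Col4a4 and Col4a5 with Col4a6 were under the filter. Col6a4, Col6a5 and Col6a6, in a row on chromosome 9, were under the filter as well. No pseudogene transcript matched a tested chain at 97% identity over at least 100 bases (0 of 19 chains). Genes on the other strand shared exonic bases with Col5a1, Col4a1, Col4a2 and Col9a3. Their share of a chain's exonic bases was at most 6.07%, in Col9a3, whose partner Tcfl5 was at or below 0.0712 TPM. On the same strand, exons of Col3a1, Col20a1 and Col7a1 overlapped those of Gm47302, BX649560.1 and Mir711, in that order. The size of these same-strand overlaps was not measured.

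Genes that modify, export and cut collagen mostly fell beside the chains. Of 68 such genes, 51 were tested, of which 35 fell, 5 rose and 11 did not pass, with a median log2 difference of -0.44. Over all genes tested, 35.4% fell and 29.0% rose. The 68 genes were listed with earlier results of these data known, so these counts are a description only. Procollagen chains are modified by hydroxylation and sugar addition. Of 13 tested genes for these steps, partner proteins included, 12 fell and 0 rose. With no filter, under median-of-ratios scaling and with no mean-variance trend in limma, 10 fell, and with FPKM 11 fell. The gene that did not pass, Colgalt1, acts in sugar addition. It had 188 and 179 TPM in the DOX libraries, against 193 and 174 TPM in the control libraries (limma adjusted p = 0.99). Plod2, the lysyl hydroxylase of the telopeptides, had 56.5 and 55.6 TPM in the DOX libraries, against 149 and 179 TPM in the control libraries (log2 difference -1.53). P4ha1 and P4ha2, catalytic subunits of prolyl 4-hydroxylase, and P3h1, a prolyl 3-hydroxylase, fell by 1.02, 1.11 and 0.83 on the log2 scale.

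Folding and export genes went both ways. Of 15 tested, 8 fell, 2 rose and 5 did not pass (median log2 difference -0.26). Among all genes tested, 35.4% fell, 29.0% rose and 64.4% were called in either direction. Serpinh1, which encodes the collagen chaperone HSP47, had 948 and 917 TPM in the DOX libraries, against 623 and 577 TPM in the control libraries, and rose while most chains fell (log2 difference 0.64, SE 0.07, limma adjusted p = 3.5e-05). Mia2, whose product helps load large cargo at endoplasmic reticulum exit sites, also rose (log2 difference 0.80). Creb3l2, a transcription factor of secretory genes, had 32.9 and 30.1 TPM in the DOX libraries, against 84.8 and 86.1 TPM in the control libraries (log2 difference -1.41). Fkbp14, a prolyl isomerase, and Sec23a, a coat protein of export vesicles, fell by 1.16 and 0.70 on the log2 scale.

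Of 5 tested genes for propeptide removal, 4 fell and 0 rose (35.4% of all tested genes fell and 29.0% rose). Furin, a proprotein convertase, had 90.4 and 87.6 TPM in the DOX libraries, against 192 and 185 TPM in the control libraries (log2 difference -1.07). Bmp1, the C-proteinase, and Pcolce2, an enhancer of that step, fell by 0.77 and 0.65 on the log2 scale. Pcolce2 was low, at 4.04 and 3.69 TPM in the DOX libraries, against 7.22 and 6.07 TPM in the control libraries. The far more abundant enhancer Pcolce did not pass (limma adjusted p = 0.080). Pcolce had 775 and 661 TPM in the DOX libraries, against 831 and 795 TPM in the control libraries. Adamts14, a procollagen N-proteinase, fell by 0.44 (limma adjusted p = 0.0054), a call lost without control replicate 1 (adjusted p = 0.060, range over alternatives 5.5e-04 to 0.060). Among crosslinking enzymes 3 of 6 were tested, with the main lysyl oxidase, Lox, under the filter. Tgm2, a transglutaminase, and Loxl3, a lysyl oxidase, fell by 0.87 and 0.76, whereas Loxl4, of the same family, rose (11.5 and 10.3 TPM in the DOX libraries, against 5.995 and 6.616 TPM in the control libraries, log2 difference 0.70).

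Of 9 tested genes for receptors and uptake, 6 fell, 1 rose and 2 did not pass (35.4% of all tested genes fell and 29.0% rose). Ddr2, a receptor tyrosine kinase for fibrillar collagen, had 584 and 553 TPM in the DOX libraries, against 330 and 330 TPM in the control libraries, and rose (log2 difference 0.78, SE 0.06, limma adjusted p = 4.8e-06). Ddr1, its relative, had 28.7 and 27.3 TPM in the DOX libraries, against 50.2 and 46.9 TPM in the control libraries, and fell (log2 difference -0.77, limma adjusted p = 1.8e-05). Antxr1, an anthrax toxin receptor that binds collagen, and Cspg4, a proteoglycan that binds type VI collagen, fell by 0.75 and 0.63 on the log2 scale. Among 6 tested genes of breakdown, 3 fell and 1 rose, and with no filter on low values 5 were called lower. Mmp2, a gelatinase that degrades type IV collagen, had 11.1 and 10.3 TPM in the DOX libraries, against 52.5 and 45.6 TPM in the control libraries (log2 difference -2.09, SE 0.09, limma adjusted p = 1.9e-07). Mmp9 and Mmp14, a second gelatinase and a membrane collagenase, fell by 0.97 and 0.94. Prodh, the mitochondrial proline oxidase, rose (log2 difference 0.97).

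**Figure D5:**
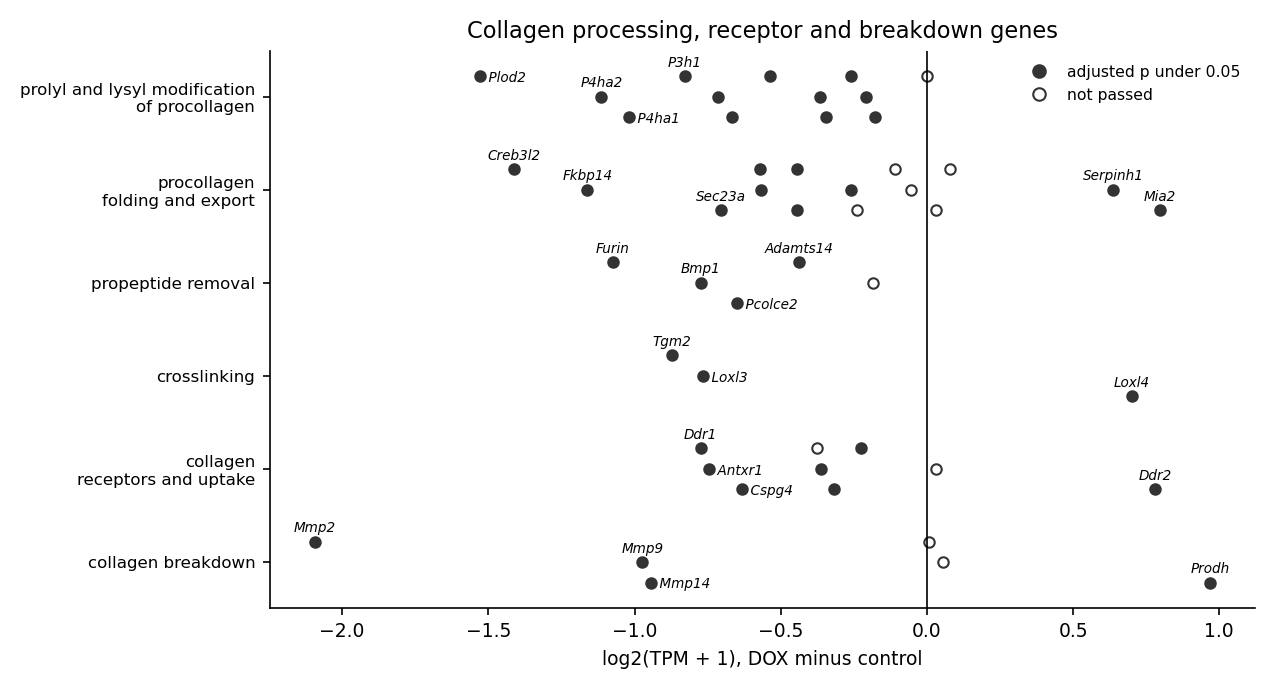
Difference of each tested gene of collagen processing, receptors and breakdown on the log2(TPM + 1) scale, DOX minus control, in rows by role, with small vertical offsets for legibility. Filled points passed the adjusted threshold. The 5 filled points right of 0 are Serpinh1, Mia2, Loxl4, Ddr2 and Prodh, and Mmp2 at -2.09 is farthest to the left.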

How the data were processed

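The authors deposited TPM and FPKM for each gene of the 4 libraries, per the file headers. The submitters' processing notes name build mm39, while aligner, quantifier, annotation and strand setting are not stated in what was used here. Titles gave the groups and replicate numbers. From the TPM, log2(TPM + 1) was tested in R 4.3.3 with limma 3.58.1 (eBayes with a mean-variance trend, no covariate) where the mean reached 1 TPM, and Benjamini-Hochberg adjustment ran over 11359 genes. Prior degrees of freedom were 6.98, beside 2 residual. The fit was tried on simulated data. Tables came from Python 3.11.15 with pandas 2.3.3. Gene neighbours and copies (blastn 2.17.0) were read from GENCODE M21, an earlier build. Alternatives changed the pseudocount (0.1, 0.5), the filter (none, or a mean of 5 TPM), the unit (FPKM), the scaling (median of ratios, quantile), the variance model, the pairing (a replicate block) or left out each library. All tested chains are named, with up to 4 called genes of largest change per related list and up to 2 called against its majority. Members and lists were chosen with earlier results of these data known.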

Additional observations from a re-analysis of the deposited data

How the results depend on the processing

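Of the 15 called chains, 12 kept direction and call under every one of the 14 alternatives that tested them, and the exceptions were Col9a3, Col20a1 and Col5a3. Called as lower were 8 chains at a mean of at least 5 TPM, since fewer were tested. The number called lower was 10 with FPKM, 10 under quantile normalization, 12 under median-of-ratios scaling and 14 with no filter, beside 13 in the main fit. Called as higher were 3 with no filter, under median-of-ratios scaling, with the replicate block and without DOX replicate 2. Fibrillar chains called lower were 1 at a mean of at least 5 TPM and 1 with FPKM, where fewer passed the filter. FACIT chains called lower were 1 at a mean of at least 5 TPM and 1 under quantile normalization, and between 1 and 2 with a library left out, while 1 was called higher with no filter. Hexagonal network chains called lower were 2 with no filter. Type VI chains called higher were 1 under median-of-ratios scaling, 1 with the replicate block and between 0 and 1 with a library left out. Where a filter did not set the number tested, the cause was not tested. With a library left out the log2 difference of Col12a1 ran between -0.10 and 0.24, of Col1a1 between -0.12 and 0.42, and of Col11a2 between -0.035 and 0.137. Titles give both groups the numbers 1 and 2 without saying that these pair cultures, and same-numbered libraries did not deviate together (correlation -0.005 over 11359 genes). The replicate block changed no called chain and added Col6a3. With 1 library left in a group, it is assumed to vary like the other group. Depth is unknown, so levels under 1 TPM carry no stated error.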

Other observations

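Genes with collagen-like stretches that the symbol rule leaves out also mostly fell. This list of 24 genes was drawn up after the chains had been examined. Of its members 8 were tested, 6 fell, 1 rose and 1 did not pass (35.4% of all tested genes fell and 29.0% rose). Emilin1, an elastic fibre glycoprotein, had 22.4 and 19.5 TPM in the DOX libraries, against 50.1 and 45.6 TPM in the control libraries (log2 difference -1.16). Scara3 (-0.69), C1qtnf12 (-0.48), Eda (-0.39) and C1qtnf6 (-0.26) fell as well. C1qtnf1 (-1.18) is counted among the 6, but it passed the filter through the control group only, with a mean of 0.333 TPM in the DOX libraries and 2.02 TPM in the control libraries. Scara5, a ferritin receptor, rose, with 8.36 and 9.47 TPM in the DOX libraries, against 4.93 and 4.71 TPM in the control libraries (log2 difference 0.77).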
